A study of Mus musculus with 12 samples.

Results

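Vincristine (VCR) and the FOXM1 inhibitor RCM1 were compared directly with each other in Rd76-9 tumors, 3 tumors per drug, out of 12 tumors in the study. The VCR tumors were those titled m4, m5 and m6 and the RCM1 tumors those titled m7, m8 and m9, so that the groups were set by the sample titles alone. Rhabdomyosarcoma (RMS) is a tumor of cells with features of skeletal muscle. The Rd76-9 line stands for its embryonal form, and a carcinogen had been used to induce the tumor it was derived from, in a female mouse of the C57BL/6 background. The cells were injected into the flank of wild-type, syngeneic C57/Bl6J mice, aged 8 to 12 weeks, and whole tumors were frozen at day 16 and sequenced as bulk RNA. One group received VCR at 0.25 mg/kg by weekly intraperitoneal injection. The other received 8 µg RCM1 per injection in nanoparticles carrying folic acid (RCM1-NPFA), given intravenously every other day. The vehicle tumors (m1, m2 and m3) came, per the study's methods, from mice given saline and empty nanoparticles, although their treatment label also names RCM1 nanoparticles, and the combination tumors (m10, m11 and m12) from mice given both drugs.

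The sources used here do not state whether VCR-treated mice also received empty nanoparticles, or RCM1-NPFA-treated mice saline. Drug, carrier, route and schedule therefore differed together and cannot be told apart. All tumors arose from 1 cell line. Each tumor was 1 mouse, and the text below gives values in the order m4, m5 and m6 for VCR and m7, m8 and m9 for RCM1-NPFA. In these 6 tumors the estimated read counts came to between 30271504 and 32108055 per tumor.

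VCR binds tubulin, the subunit of microtubules, and prevents the assembly of the mitotic spindle, so that dividing cells arrest in mitosis. FOXM1 is a transcription factor that drives the genes of the G2 and M phases, among them those of cyclin B, Aurora kinases and PLK1. RCM1 is a small molecule that blocks the nuclear localization of FOXM1. Both drugs thus act on dividing cells, VCR on the machinery of the spindle and RCM1 on the transcription of its genes. The question addressed here was in which genes tumors that received one drug differed from tumors that received the other.

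No gene passed the threshold between VCR and RCM1-NPFA. Of 17602 genes tested with edgeR's quasi-likelihood test, 0 (0%) were called at a Benjamini-Hochberg adjusted p of 0.1. The lowest adjusted value was 0.901. At an unadjusted p under 0.05 there were 949 genes, 5.39% of those tested, with 539 higher after VCR (3.06%) and 410 lower (2.33%). The CPM (counts scaled to library size) of the 3 VCR tumors lay entirely above or below those of the 3 RCM1-NPFA tumors in 2025 genes, or 11.5%, of which 1085 (6.16%) were higher and 940 (5.34%) lower after VCR. The log2 fold change, given throughout as VCR minus RCM1-NPFA, was above 0 in 8701 genes (49.4%). Its standard error had a median of 0.16, and the half-width of its 95% interval a median of 0.35 on the log2 scale. This interval is not adjusted for the number of genes, so a difference would in most genes have to be larger to be called. None of the 294 genes with an absolute log2 fold change above 1 was called. The interval lay wholly between -1 and 1 in 77.4% of the genes.

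Pairs of tumors of the same drug differed less than the median pair across drugs, except the RCM1-NPFA pairs with m9, which differed more. The SD over genes of the difference in log2 CPM was 0.30, 0.36 and 0.40 for the pairs of VCR tumors. It was 0.34, 0.62 and 0.63 for the pairs of RCM1-NPFA tumors, and between 0.34 and 0.60, with a median of 0.42, for the 9 pairs with 1 tumor of each drug. Both large values within RCM1-NPFA involved m9, a tumor rich in muscle RNA that is described below.

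**Figure D1:**
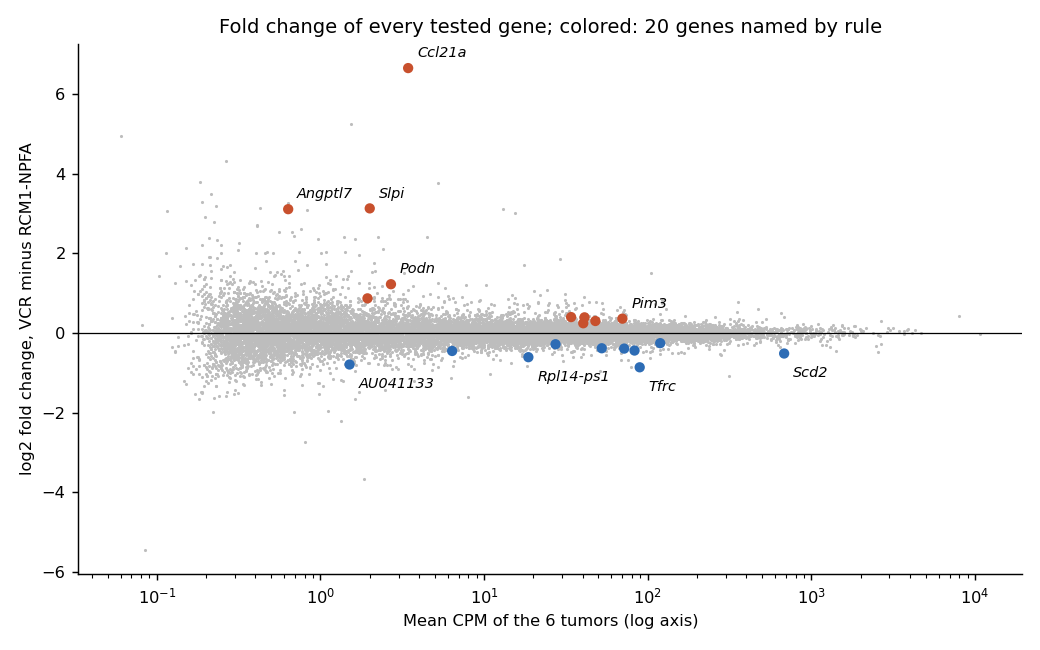
The log2 fold change of VCR over RCM1-NPFA (vertical axis) is plotted for each tested gene against its mean CPM in the 6 tumors (horizontal log axis). The 20 colored genes are the 10 named in each direction, red for higher and blue for lower after VCR, and none of them passed an adjusted p of 0.1.

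Foxm1 itself did not differ detectably between the drugs. It was measured at 167, 172 and 168 CPM after VCR and 148, 179 and 167 CPM after RCM1-NPFA. The groups overlapped, the log2 fold change was 0.035 ± 0.094 (SE), and its 95% interval ran from -0.17 to 0.24. Among 30 genes of FOXM1 and its mitotic targets, 17 were above 0 and 13 below, with a median log2 fold change of 0.034, against -0.0022 over all genes tested. None had groups that did not overlap. The member with the lowest p was Aurka, the Aurora A kinase of the spindle poles, whose fold change was smaller once GC content and length were adjusted for (0.13), at 57.8, 73.2 and 63.3 CPM after VCR and 51.0, 56.9 and 58.3 CPM after RCM1-NPFA (log2 fold change 0.23 ± 0.10, edgeR's adjusted p = 0.901). Mki67, the gene of the proliferation marker Ki-67, was at 412, 484 and 469 CPM after VCR and 446, 594 and 514 CPM after RCM1-NPFA, with a log2 fold change of -0.19 ± 0.14. The interval of Mki67 from -0.49 to 0.12 covered 0.

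Most replication genes were highest in 1 RCM1-NPFA tumor, and most mitotic genes in that tumor or in 1 VCR tumor. Of the 30 mitotic genes, 16 had their highest value among the 6 tumors in m8, and 12 in the VCR tumor m5. Of 24 genes of DNA replication and S phase, 22 were highest in m8. With m8 left out, the median log2 fold change of the replication genes was 0.13, and with m7 left out it was -0.14, against -0.0069 with all 6 tumors. The only member with an unadjusted p under 0.05 was Ccne1, cyclin E1, at 40.3, 42.7 and 38.1 CPM after VCR and 26.2, 34.5 and 33.0 CPM after RCM1-NPFA. Every VCR tumor was above every RCM1-NPFA tumor for this gene (log2 fold change 0.37 ± 0.13, edgeR's adjusted p = 0.901).

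Genes of tubulin, the protein that VCR binds, did not pass the threshold. Of 16 tubulin genes, 11 were above 0 and 5 below, with a median of 0.098. Tubb5, the beta-tubulin with the highest level per transcript length, was at 1777 ± 29.8 CPM (SD, n = 3) after VCR and 1748 ± 242 CPM after RCM1-NPFA. Its log2 fold change of 0.024 had an interval from -0.20 to 0.25. Tuba1c, an alpha-tubulin, was the tubulin whose groups did not overlap, at 378, 448 and 374 CPM after VCR and 340, 351 and 329 CPM after RCM1-NPFA (0.23 ± 0.082). This was 1 of 16 tubulins (6.25%), about the share of all genes separate in this direction (6.16%). Tubb3, a class of beta-tubulin known from neurons and from drug-resistant tumors, was at 15.2, 12.1 and 15.3 CPM and at 11.7, 8.43 and 14.4 CPM, with overlapping groups. Of 24 regulators of microtubules, 9 were above 0 and 15 below. The member with the lowest p was Tbcb, a chaperone that folds alpha-tubulin, at 74.8, 83.8 and 72.1 CPM after VCR and 62.1, 68.3 and 62.9 CPM after RCM1-NPFA (0.26 ± 0.078, edgeR's adjusted p = 0.901). With GC content and length adjusted for, the log2 fold changes of Tbcb, Tuba1c and Tubb3 were 0.040, 0.081 and 0.15. The median of the tubulins was 0.021 without m9.

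The genes of drug export and of folate uptake, the routes by which VCR leaves cells and folic acid carriers enter them, did not pass the threshold either. Abcb1a and Abcb1b encode the P-glycoproteins of mice, which export VCR among other drugs. Abcb1b was at 41.8, 37.6 and 46.7 CPM after VCR and 43.0, 41.8 and 48.2 CPM after RCM1-NPFA, and the interval of its log2 fold change ran from -0.34 to 0.18. Abcb1a was lower in level in both groups, between 2.66 and 4.27 CPM, and its interval ran from -0.77 to 0.39. Of 11 transporter genes of the ABC family, 9 were below 0 and 2 above, none had separate groups, and Abcg2 had the lowest p (-0.33 ± 0.15). The folate receptor gene Folr1 had between 0 and 6 reads in all 12 tumors and was not tested. Folr2, the folate receptor known from macrophages, was at 19.2, 33.1 and 22.8 CPM after VCR and 32.2, 31.2 and 21.3 CPM after RCM1-NPFA, and Slc46a1, the proton-coupled folate transporter, between 3.81 and 5.79 CPM in both. Fpgs, which traps folates in cells as polyglutamates, had the lowest p of the folate list (0.19 ± 0.074, and 0.044 with GC content and length adjusted for).

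Genes of cell death had no common direction, with a median log2 fold change of 0.013. Of 26 genes of p53 targets and the BCL2 family, 3 were higher and 3 lower in every VCR tumor than in every RCM1-NPFA tumor (11.5% in each direction, beside 6.16% and 5.34% of all genes). Bax, which permeabilizes mitochondria in apoptosis, was at 80.7, 94.1 and 77.4 CPM after VCR and 72.6, 71.0 and 70.3 CPM after RCM1-NPFA. Its log2 fold change of 0.24 ± 0.074 became -0.0051 once GC content and length were adjusted for. Bmf, a pro-apoptotic protein linked to the cytoskeleton, was at 38.9, 28.2 and 42.7 CPM after VCR and 53.7, 50.1 and 55.9 CPM after RCM1-NPFA (-0.54 ± 0.16). The pro-apoptotic Bcl2l11 and the anti-apoptotic Bcl2 were also lower in each VCR tumor, both at a log2 fold change of -0.29. Trp53 and its targets Cdkn1a and Mdm2 overlapped between the groups, with log2 fold changes of 0.075, 0.090 and -0.050. None of these genes passed the threshold.

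The genes with the smallest p-values were mostly small in fold or low in level. The 10 genes named as higher after VCR had unadjusted p-values between 0.00026 and 0.0029 and edgeR's adjusted p of 0.901 each. Their groups did not overlap, which the choice required. Slpi, a secreted inhibitor of leukocyte proteases, was at 6.76, 3.14 and 0.877 CPM after VCR and 0.530, 0.287 and 0.409 CPM after RCM1-NPFA. Its log2 fold change was 3.13 ± 0.60, and m6 lay much closer to the RCM1-NPFA tumors than m4 and m5 did. Angptl7, a secreted angiopoietin-like protein, was at 0.539, 1.36 and 1.53 CPM after VCR and 0.132, 0.223 and 0.0315 CPM after RCM1-NPFA. Ccl21a, a chemokine of lymphoid tissue, was at 18.8, 0.562 and 1.07 CPM after VCR and 0, 0 and 0.189 CPM after RCM1-NPFA. Ccl21a has near-identical copies in the mouse genome, so that its reads may be divided among them, and its level rested mainly on m4.

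The other genes of this set were more even among tumors. Pim3, a growth-promoting kinase, was at 73.9, 85.3 and 76.9 CPM after VCR and 64.7, 61.0 and 58.2 CPM after RCM1-NPFA, a log2 fold change of 0.36 ± 0.076. Trib1, a pseudokinase that directs protein degradation, was at 38.1, 40.6 and 37.4 CPM and at 27.2, 27.3 and 33.5 CPM (0.40 ± 0.11). Slc5a5, the iodide transporter, was at 2.63, 2.58 and 2.31 CPM and at 1.22, 1.44 and 1.45 CPM (0.87 ± 0.22). Podn, a proteoglycan of the matrix, had a log2 fold change of 1.22. Exosc6 (RNA exosome), Dohh (modification of a translation factor) and Nubp2 (assembly of iron-sulfur clusters) had log2 fold changes between 0.25 and 0.39. With GC content and length adjusted for, those of Pim3, Exosc6, Dohh and Nubp2 were 0.22, 0.19, 0.098 and 0.071. The mean of the vehicle tumors lay above that of the RCM1-NPFA tumors in 7 of the 10 genes and below that of the VCR tumors in all 10.

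The 10 genes named as lower after VCR had log2 fold changes between -0.25 and -0.86. Tfrc, the transferrin receptor that takes up iron, was at 70.6, 52.1 and 67.7 CPM after VCR and 103, 158 and 84.5 CPM after RCM1-NPFA (-0.86 ± 0.24). Kdm3a, a histone demethylase, was at 64.2, 64.3 and 82.9 CPM and at 106, 92.9 and 87.8 CPM (-0.44 ± 0.11). Scd2, a stearoyl-CoA desaturase of lipid synthesis, was at 568, 495 and 622 CPM and at 838, 896 and 672 CPM (-0.51 ± 0.14). Rpl14-ps1, a ribosomal pseudogene, was at 14.6, 14.7 and 15 CPM after VCR and 21.8, 21.2 and 24.6 CPM after RCM1-NPFA. Its reads may be shared with the parent gene. The others were Chd2 (chromatin remodeling), Nbr1 (a receptor of selective autophagy), Bsn (a scaffold of synapses), Slc22a21 (carnitine transport), Mcc and AU041133. The mean of the vehicle tumors lay above that of the VCR tumors in all 10 genes, and above that of the RCM1-NPFA tumors in 8. All 20 genes were chosen on this contrast, so their values are given as a description.

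**Figure D2:**
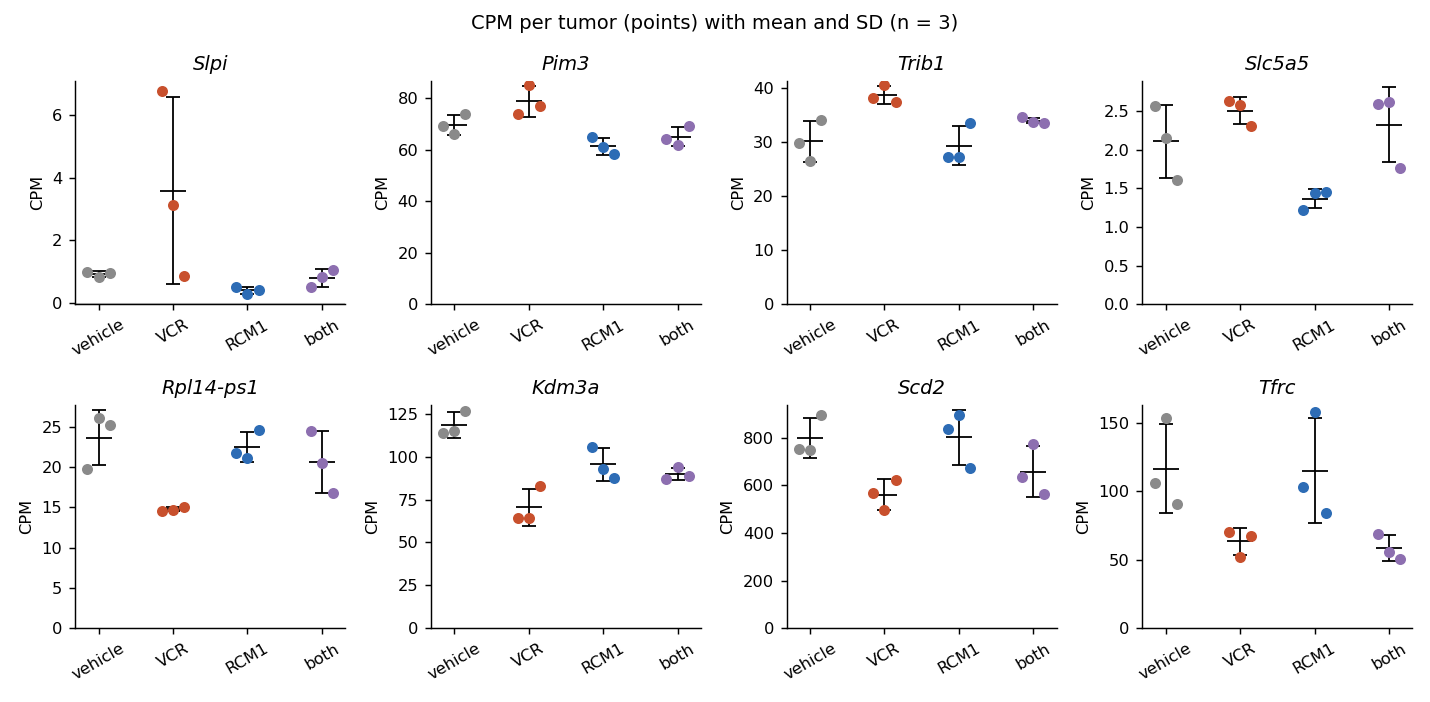
CPM is shown for each tumor (points) in the vehicle, VCR, RCM1-NPFA and combination groups, with the mean and SD (n = 3), for 4 genes named as higher and 4 as lower after VCR. Slpi shows a wide spread within VCR, from 0.877 to 6.76 CPM, whereas Rpl14-ps1 lies between 14.6 and 15 CPM in all 3 VCR tumors.

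Immediate early genes, which cells transcribe within minutes of a stimulus, were mostly higher after VCR. Of 24 members, 20 were above 0 and 4 below, with a median log2 fold change of 0.23, and 5 had every VCR tumor above every RCM1-NPFA tumor (20.8%, beside 6.16% of all genes). Ier2 was at 65.4, 73.1 and 53.4 CPM after VCR and 43.0, 39.9 and 44.5 CPM after RCM1-NPFA, with a log2 fold change of 0.59 ± 0.16 and edgeR's adjusted p of 0.901, and of 0.39 with GC content and length adjusted for. Junb, a subunit of the transcription factor AP-1, was at 268, 333 and 275 CPM and at 256, 178 and 232 CPM. Ier5 and the oncogene Myc were also separate, with log2 fold changes of 0.32 and 0.23. Fos, the partner of Jun in AP-1, was at 91.0, 45.7 and 21.9 CPM after VCR and 46.5, 16.2 and 22.6 CPM after RCM1-NPFA, so that the groups overlapped and m4 stood highest. The members were highest in m4 for 9 genes, in m5 for 6 and in m7 for 6. Fos was between 23.2 and 91.2 CPM in vehicle tumors.

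Genes of the circadian clock leaned in the other direction. Of 19 members, 14 were below 0 and 5 above, with a median of -0.19, and 6 were lower in every VCR tumor (31.6%, beside 5.34% of all genes). Ciart, a repressor of the clock, was at 9.61, 9.83 and 9.46 CPM after VCR and 17.4, 17.1 and 11.5 CPM after RCM1-NPFA (-0.67 ± 0.25). Per2 was at 15.8, 12.8 and 15.3 CPM and at 22.9, 19.9 and 16.8 CPM (-0.44 ± 0.17). Per3, Nr1d2, Bhlhe41 and Tef were separate in the same direction. Npas2 and Hlf were separate in the opposite direction, at log2 fold changes of 0.88 and 0.90. The hour at which each tumor was collected is not given in the sources used here, and its part in these values was not tested. Without m9 the median of the list was -0.048.

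Most hypoxia and glycolysis genes were lower after VCR than in 2 of the 3 RCM1-NPFA tumors. Their summed level overlapped between the groups, at 12979, 14851 and 12853 CPM after VCR and 14799, 11899 and 16472 CPM after RCM1-NPFA. Of 25 members, 23 were below 0 and 2 above, with a median of -0.19, and 5 had an unadjusted p under 0.05 (beside 2.33% of all genes in this direction). Pdk1, which diverts pyruvate from mitochondria, was at 41.0, 44.6 and 50.3 CPM after VCR and 85.4, 50.8 and 63.1 CPM after RCM1-NPFA (-0.55 ± 0.21, edgeR's adjusted p = 0.901). Car9, the carbonic anhydrase known as a marker of hypoxia, was at 30.9, 29.8 and 43.8 CPM and at 95.8, 36.1 and 71.1 CPM. The glucose transporter Slc2a1 was at 131, 117 and 136 CPM and at 232, 118 and 190 CPM. In these genes m8 lay among or just above the VCR tumors, and m7 and m9 above them. With all 6 tumors, 2 of the 25 members were lower in every VCR tumor (8.0%, beside 5.34% of all genes). This was also 2 of 25 without m7 or without m9, beside 10.3% and 11.1% of all genes. Without m8 it was 17 of 25 (68.0%, beside 11.2% of all genes), with a median of -0.34, but m8 was the tumor seen to lie with VCR. Vehicle tumors reached higher, with Car9 at 43.7, 87.4 and 139 CPM.

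Stress chaperones showed small differences. Of 21 genes of the endoplasmic reticulum (ER) chaperones, 5 were lower in every VCR tumor and 0 higher (23.8%, beside 5.34% of all genes). Hsp90b1, the HSP90 of the ER, was at 1046 CPM on average after VCR and 1289 CPM after RCM1-NPFA (-0.30 ± 0.096). Its companions Canx, Pdia3, Pdia4 and Pdia6 had log2 fold changes between -0.20 and -0.077. The median of the 21 genes was -0.058 with all tumors and -0.019 without m5. Heat shock genes had a median of -0.081. Chac1, which degrades glutathione and belongs to the ATF4 stress response, was at 21.2, 13.2 and 11.2 CPM after VCR and 10.7, 19.2 and 12.8 CPM after RCM1-NPFA, and its interval from -0.71 to 0.90 was wide.

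Most genes of antigen presentation, lymphocytes and chemokines were higher after VCR, and those of macrophages were not. The summed chemokine level, given below, was not higher after VCR. In bulk tumors, fewer cells of a type and less RNA per cell cannot be told apart. Of 8 genes of MHC class II, which present antigen to CD4+ T cells, all 8 were above 0 and 7 had every VCR tumor above every RCM1-NPFA tumor (87.5%, beside 6.16% of all genes). Their summed level was 1018.5, 801 and 1112 CPM after VCR and 710, 354 and 677 CPM after RCM1-NPFA. The vehicle tumors held 2915, 410 and 177 CPM, a wider range than that between the drugs. H2-Aa was at 160, 127 and 183 CPM after VCR and 107, 53.8 and 104 CPM after RCM1-NPFA, with a log2 fold change of 0.83 ± 0.91. The standard error was larger than the fold change, in a fit that estimated the spread over all 12 tumors. Without m8 the median of the list was 0.46, against 0.74 with it. H2-Oa, the member with the lowest p, was at 1.84, 0.794 and 0.747 CPM and at 0.463, 0.223 and 0.724 CPM. These genes lie together and are similar in sequence, so reads may be divided among them.

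Lymphocyte genes were highest in 1 VCR tumor. Of 20 members, 19 were above 0, with a median of 0.78, but 14 were highest in m4. Groups did not overlap in 1 member (5.0%, beside 6.16% of all genes higher after VCR). Without m4 the median was 0.40. Summed, they held 70.0, 21.7 and 33.1 CPM after VCR and 21.9, 16.2 and 27.8 CPM after RCM1-NPFA. Cd79a, a subunit of the B cell receptor, was at 10.7, 0.364 and 0.682 CPM after VCR and 0.695, 1.05 and 0.944 CPM after RCM1-NPFA. Its log2 fold change of 2.12 became -0.77 without m4. Cd79b, its partner, was the separate member, at 6.41, 1.89 and 1.30 CPM and at 0.993, 1.24 and 1.04 CPM.

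Chemokines that attract myeloid cells were higher after VCR in several cases. Of 23 genes of chemokines and myeloid growth factors, 20 were above 0, with a median of 0.49, and 7 were separate (30.4%, beside 6.16% of all genes). Without m5 the median was 0.30. Summed, the list overlapped between the groups, at 1665, 1571 and 1532 CPM after VCR and 1803, 1643 and 1408 CPM after RCM1-NPFA. Cxcl2, which attracts neutrophils, was at 4.57, 3.04 and 1.62 CPM after VCR and 1.16, 1.02 and 1.04 CPM after RCM1-NPFA (1.52 ± 0.43, edgeR's adjusted p = 0.901). The related Cxcl3 was at 1.33, 0.529 and 0.292 CPM and at 0.0662, 0.128 and 0.126 CPM. Ccl2 and Ccl7, attractants of monocytes, were at 35.3, 47.0 and 30.9 CPM against 29.7, 25.0 and 26.2 CPM, and at 22.7, 34.6 and 23.1 CPM against 17.8, 14.3 and 15.7 CPM. Of 22 macrophage genes, 11 were above 0, and 2 were separate in each direction (9.09%). The higher ones were Ly6c2, a marker of monocytes, and the antibody receptor Fcgr1, at log2 fold changes of 0.74 and 0.18. Of the lower ones, Itgam, an integrin of myeloid cells, was at 159, 142 and 168 CPM after VCR and 203, 181 and 171 CPM after RCM1-NPFA (-0.24 ± 0.082), and the scavenger receptor Msr1 had a log2 fold change of -0.25. Of 9 neutrophil genes tested, 8 were above 0, with a median of 0.35 that was 0.11 without m5. Their sums overlapped, at 54.1, 46.9 and 50.9 CPM after VCR and 65.3, 53.7 and 37.1 CPM after RCM1-NPFA. Of 29 genes of the interferon response and MHC class I, 21 were above 0 with a median of 0.17, and edgeR gave 0 of them an unadjusted p under 0.05. That median was 0.067 without m8 and 0.39 without m7.

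Skeletal muscle RNA separated the tumors more than the drugs did. The summed level of 27 genes of mature muscle fibres was 4891, 15085 and 2366 CPM after VCR and 431, 581 and 22518 CPM after RCM1-NPFA. It was between 316 and 466 CPM in the vehicle tumors. Thus m9 held the most muscle RNA of all tumors, while the other RCM1-NPFA tumors were near vehicle, and the VCR tumors lay between. The myosin heavy chain Myh4 was at 646, 2641 and 301 CPM after VCR and 1.42, 11 and 4898 CPM after RCM1-NPFA. With all 6 tumors, 2 of the 27 genes were higher in every VCR tumor (7.41%, beside 6.16% of all genes). This was also 2 of 27 without m7 or without m8, beside 12% and 12.8% of all genes. Without m9 it was 26 of 27 (96.3%, beside 13.7% of all genes), but m9 was the tumor seen to hold the most muscle RNA. The median log2 fold change of the list was -0.12 with all tumors, 4.73 without m9, -1.09 without m5 and 0.12 without m4. With all tumors kept it was 2.35 by limma-voom, so that its direction depended on the method. With muscle RNA as a covariate it was 0.52. That covariate was the summed level of these same genes, so this value cannot show their direction. Without m9, edgeR called 16 genes at an adjusted p under 0.1, all higher after VCR, among them Des (desmin), Myod1, Myf6, Cryab and Trim63. These are genes of muscle.

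The markers of rhabdomyosarcoma were checked in the same tumors. The myogenic factor Myf5 was present in each tumor, at 58.8, 54.1 and 67.2 CPM after VCR and 51.7, 48.9 and 49.6 CPM after RCM1-NPFA, and the cadherin of muscle precursors Cdh15 was between 156 and 202 CPM. Both were higher in every VCR tumor than in every RCM1-NPFA tumor. The defining factors Myod1 and Myog were low, at no more than 2.38 CPM in any tumor. Myod1 was at 2.38, 2.38 and 1.20 CPM after VCR and 0.0331, 0 and 2.30 CPM after RCM1-NPFA, and between 0 and 0.0309 CPM in vehicle tumors. Myog was at 2.16, 1.65 and 1.43 CPM and at 0, 0.287 and 0.976 CPM, and was separate between the drugs (2.03 ± 0.79). Mymk and Mymx, which drive the fusion of muscle cells, had too few reads to be tested. The fetal receptor subunit Chrng, the member with the lowest p, was at 1.02, 0.695 and 0.747 CPM and at 0.331, 0.511 and 0.315 CPM. Of 23 markers tested, 5 were separate (21.7%, beside 6.16% of all genes), all higher after VCR, and the median of 0.17 was -0.028 without m7.

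Most adipocyte genes were higher after VCR with all 6 tumors kept, but their summed level overlapped between the groups. It was 441, 587 and 329 CPM after VCR and 303, 330 and 498 CPM after RCM1-NPFA. Of 19 members tested, 18 were above 0, with a median of 0.73, and 8 were higher in every VCR tumor (42.1%, beside 6.16% of all genes). The median was 2.21 without m9 and 0.29 without m5. Adipoq, the hormone adiponectin, was at 3.36, 2.35 and 1.33 CPM after VCR and 0.232, 0.670 and 0.409 CPM after RCM1-NPFA. Cfd, the complement factor known as adipsin, was at 32.2, 28.4 and 9.72 CPM and at 1.29, 3.96 and 2.86 CPM. Plin1, which coats lipid droplets, was at 1.59, 1.65 and 0.715 CPM and at 0.0993, 0.287 and 0.252 CPM. The log2 fold changes of these genes were 2.41 ± 1.30, 3.11 ± 1.5 and 2.60 ± 1.26. The vehicle tumors covered both drugs, with Adipoq at 2.99, 7.46 and 0.101 CPM. The sources used here do not give the origin of this fat and muscle RNA, within or next to the tumor. Its part in any other difference between the drugs was not tested beyond leaving out tumors and a covariate for muscle RNA. With that covariate 0 genes were called, as in the main fit.

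**Figure D3:**
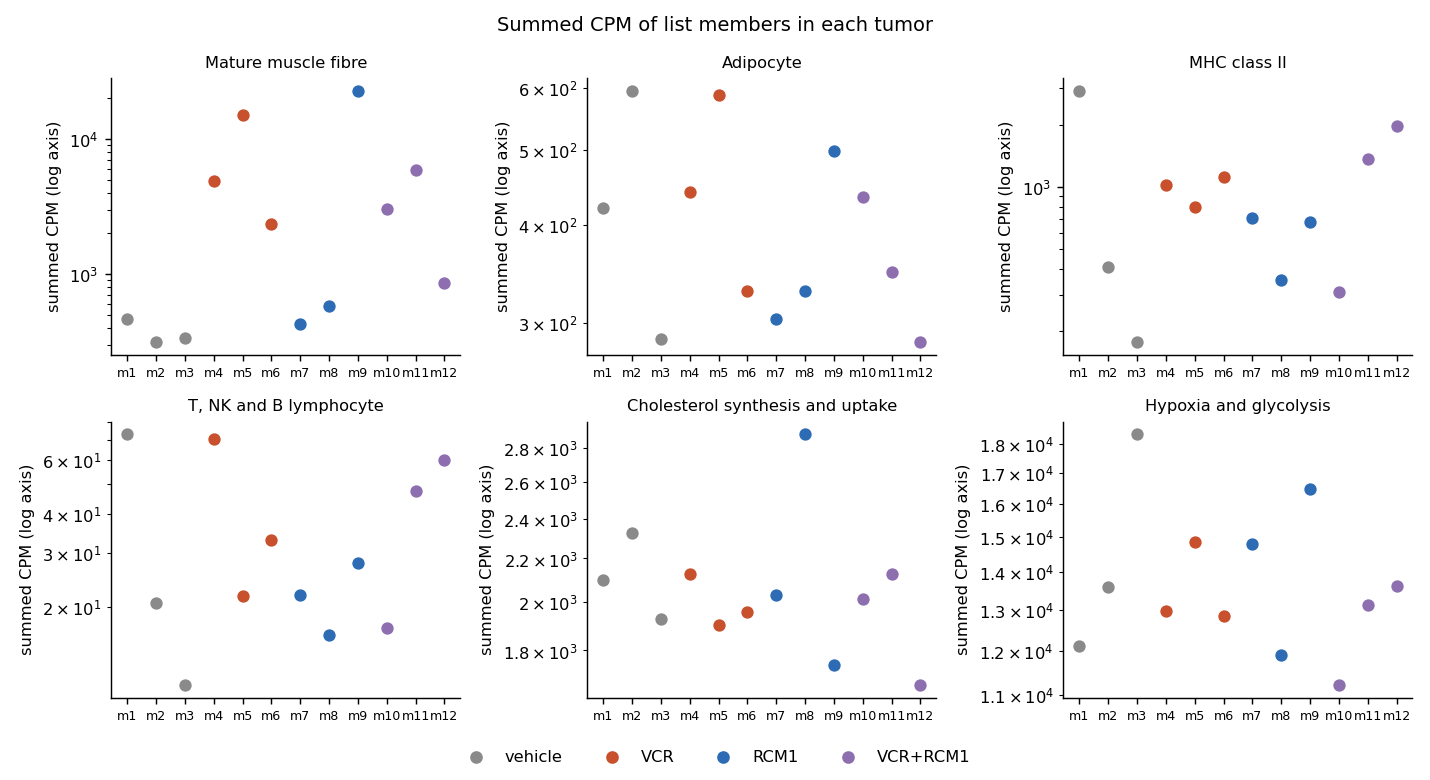
The summed CPM of the members of 6 gene lists (vertical log axes) is shown for each of the 12 tumors, colored by group. In mature muscle fibre, m9 lies at 22518 CPM while m7 and m8 lie at 431 and 581 CPM, and in cholesterol synthesis m8 lies above every other tumor at 2885 CPM.

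Genes of cholesterol synthesis were highest in 1 RCM1-NPFA tumor. Of 22 genes of cholesterol synthesis and uptake, 20 were below 0, with a median of -0.19, and 0 had groups that did not overlap. All 22 had their highest value in m8. Lss, lanosterol synthase, was at 55.1, 55.5 and 56.7 CPM after VCR and 61.1, 101 and 51.2 CPM after RCM1-NPFA. Without m8 the median of the list was 0.040.

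Short genes had higher fold changes than long ones. Among 14036 genes with a mean of at least 1 CPM, the median log2 fold change went from 0.094 in the quintile with the shortest transcripts, with a median effective length of 986 bases, to -0.071 in the longest, at 6198 bases. Over 13249 of these genes with a known GC content it went from -0.077 in the lowest quintile (41.3% GC) to 0.081 in the highest (57.9%). The difference between the shortest and the longest quintile, against the mean of all tumors, was 0.23, 0.29 and 0.0035 in m4, m5 and m6 and -0.038, 0.093 and -0.018 in m7, m8 and m9. It was thus present in m4 and m5 and not in m6. Vehicle tumors ranged from -0.28 to 0.00037.

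Lists of short genes were among those that leaned towards VCR. Of 27 nuclear genes of oxidative phosphorylation, with a median length of 954 bases, 25 were above 0, with a median of 0.15, and 24 were highest in m5. Without m5 the median was 0.086. Ndufa1, a subunit of complex I, was at 45.2, 51.3 and 41.4 CPM after VCR and 34.4, 39.5 and 38.8 CPM after RCM1-NPFA (0.29 ± 0.10, edgeR's adjusted p = 0.901). When GC content and length were adjusted for, the median of the list was 0.035. In the same fit the median of 30 cytosolic ribosomal protein genes went from 0.044 to -0.13 and that of the tubulins from 0.098 to -0.050. The immediate early genes kept a median of 0.13, the MHC class II genes 0.60 and the adipocyte genes 0.75.

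**Figure D4:**
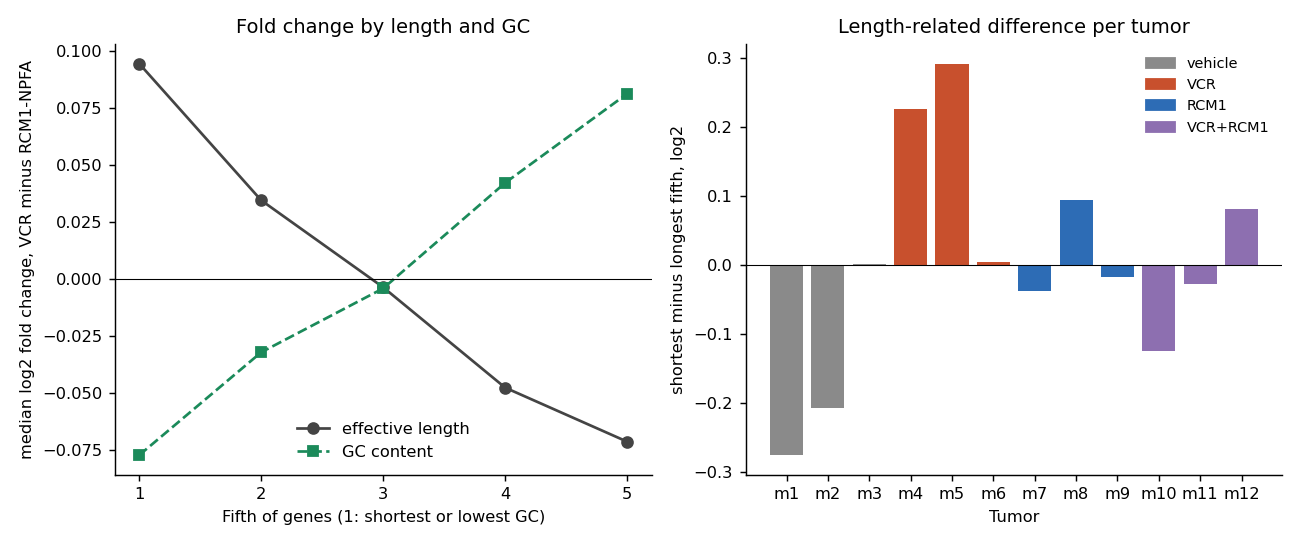
Left, the median log2 fold change of VCR over RCM1-NPFA is shown for quintiles of genes ordered by effective transcript length or GC content, running from 0.094 to -0.071 with length and from -0.077 to 0.081 with GC. Right, bars starting at 0 give, for each tumor, the median deviation of the shortest quintile minus that of the longest quintile on the log2 scale, which is highest in m5 and m4.

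Genes of vessels, stroma and signaling pathways were separate between the drugs about as often as all genes. Pecam1, the endothelial marker CD31, was at 50.9, 66.0 and 47.2 CPM after VCR and 54.1, 49.7 and 55.9 CPM after RCM1-NPFA, with an interval from -0.24 to 0.32. Of 22 endothelial genes, 15 were above 0, and 15 were highest in m5. The separate members were 1 in each direction (4.55%, beside 6.16% of all genes higher and 5.34% lower). Sox18, a factor of developing vessels, was the higher one (0.37 ± 0.18, and 0.18 with GC content and length adjusted for), and Apln, a peptide that acts on endothelium, the lower one (-0.27 ± 0.20). Of 31 genes of fibroblasts and extracellular matrix, 14 were above 0 and 17 below, and 2 were separate in each direction (6.45%). Fn1, fibronectin, was at 1970, 2098 and 2354 CPM after VCR and 3780, 2512 and 2715 CPM after RCM1-NPFA (-0.49 ± 0.17), and m7 was the highest. Pi16, a marker of universal fibroblasts, was at 6.28, 10.8 and 6.56 CPM and at 3.97, 4.02 and 2.77 CPM (1.13 ± 0.42).

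Genes of Wnt signaling had 10 of 20 members above 0, and those of Hippo signaling and YAP targets 8 of 20. In the latter, Ccn1, a matrix protein that YAP induces, was at 400, 489 and 351 CPM after VCR and 359, 172 and 322 CPM after RCM1-NPFA, and Arhgap29 was at 50.5, 44.5 and 66.5 CPM and at 80.4, 73.7 and 58.7 CPM. Lysosome genes had 17 of 28 above 0 and a median of 0.024. Pericyte genes had 8 of 16 above 0, keratinocyte genes 2 of the 5 tested and ATF4 stress and glutathione genes 13 of 29.

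**Figure D5:**
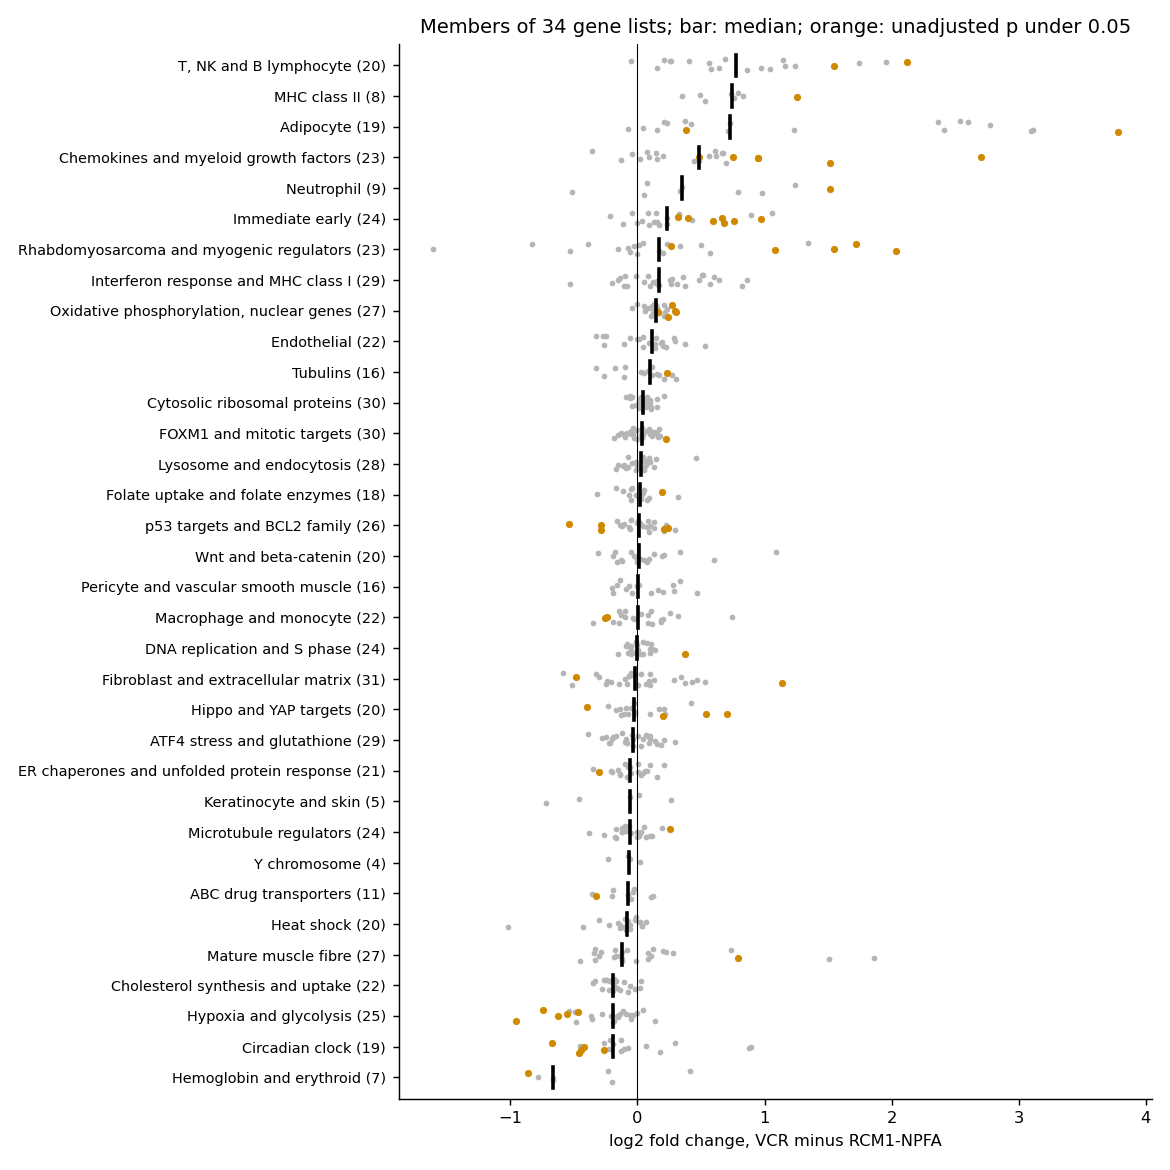
The log2 fold change of VCR over RCM1-NPFA (horizontal axis) is plotted for each tested member of 34 gene lists, ordered by their medians (black bars), with the number of members tested in parentheses and members with an unadjusted p under 0.05 in orange. Medians ran from -0.66 for hemoglobin and erythroid genes to 0.78 for lymphocyte genes, and no member passed an adjusted p of 0.1.

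Blood RNA and Y-linked RNA differed among tumors of the same drug. Hemoglobin and erythroid genes summed to 482, 66.8 and 76.2 CPM after VCR and 436, 322 and 171 CPM after RCM1-NPFA. These sums include Tfrc, at 70.6, 52.1 and 67.7 CPM after VCR and 103, 158 and 84.5 CPM after RCM1-NPFA. In m5 and m6 they were thus mostly Tfrc, and they do not measure blood RNA alone. The median of 7 tested members was -0.66, and -3.58 without m4, -0.092 without m5 and -0.055 without m7. The 4 Y-linked genes summed to 21.6, 0.529 and 21.5 CPM after VCR and 0.695, 19.1 and 26 CPM after RCM1-NPFA, so that m5 and m7 were near 0. The tumor line came from a female mouse. With the Y-linked level as a covariate, edgeR again called 0 genes.

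DESeq2's Wald test, the test of the study's methods, made calls that edgeR did not. Fitted to all 12 tumors, it called 1 gene, Slpi (log2 fold change 3.12, DESeq2's adjusted p = 0.0033). Fitted to the 6 tumors alone it called 26 genes, 20 higher and 6 lower after VCR. Among these were the adipocyte genes Adipoq, Cfd, Cidec, Pck1 and Plin1, the chemokines Cxcl2 and Ccl7, the immediate early gene Ier2 and, in the lower direction, Scd2, Chd2 and Bsn. Hp, haptoglobin, a plasma protein made in liver and fat, was at 44.0, 22.5 and 16.2 CPM after VCR and 2.48, 4.66 and 3.08 CPM after RCM1-NPFA, and Socs1, a feedback inhibitor of cytokine signaling, at 26, 22.5 and 19.9 CPM and at 12, 15.7 and 13.6 CPM. Their groups did not overlap. In the vehicle tumors Hp covered both drugs, at 24.3, 80.2 and 1.28 CPM, and Socs1 was at 27.8, 18.5 and 17.1 CPM. Hp and Socs1 were chosen here after their values were seen. With each of the 6 tumors left out in turn, DESeq2's fit to the 6 tumors called between 13 and 398 genes, the most without m9.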

How the data were processed

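RNA-seq of 12 Rd76-9 tumors was analysed, of which 3 treated with VCR and 3 with RCM1-NPFA were compared. The authors made poly-A libraries, assigned reads to GRCm38 transcripts with kallisto, and deposited estimated counts, TPM values and transcript lengths per transcript and tumor. The versions are not given in the sources used here. The estimated counts are not normalized. The kit is named as stranded and the libraries as non-stranded, so overlapping antisense genes may share reads. Each of the 120299 transcripts found its gene in the RefSeq annotation of GRCm38.p6 (38898 genes), and counts were summed per gene and rounded. TPM as deposited was used only to compare levels between genes and to weight transcript lengths into a length per gene.

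Genes kept by filterByExpr (minimum count 10) were normalized by TMM and tested with edgeR 4.0.16 in R 4.3.3, with all 12 tumors in one fit of 4 groups and Benjamini-Hochberg adjustment over 17602 genes at a threshold of 0.1. A two-sided exact permutation test per gene, on log2(CPM + 0.1), cannot go below p = 0.1 with 3 against 3 tumors, a value reached by 51 of 96 named genes. No source says that tumors were processed apart, and each came from its own mouse. No batch is given in the labels.

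The comparison, the 34 gene lists and the rule for named genes were chosen with earlier results of these data known, so lists were described by counts and medians and not tested. Named genes were Foxm1, Mki67, Chac1, Pecam1, Tubb5, Tubb3, Abcb1a, Abcb1b, Folr1, Folr2 and Slc46a1. In each direction, the 10 genes with separate groups, a mean of at least 1 CPM in the higher group and the smallest unadjusted p were added, since none passed the threshold. Predicted gene models were left out there. The 2 members of each list with the smallest p were also eligible. Other members named in the text were chosen as well-known genes of their list, with their values seen.

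Alternatives were DESeq2 1.42.0 (size factors, and the Wald test on 12 or 6 tumors), limma-voom (limma 3.58.1), no filter or a mean of 50 counts, the 6 tumors alone, length offsets, robust empirical Bayes, covariates for muscle or Y-linked RNA, a threshold of 0.05, and leaving out tumors. Offsets from splines of GC content and length, and DESeq2 without each of the 6 tumors, were added after seeing the data. Scripts were tested on simulated data. Python 3.11.15 with pandas 2.3.3 and matplotlib 3.10.9 was used for tables and figures.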

Additional observations from a re-analysis of the deposited data

How the results depend on the processing

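With edgeR, 0 genes were called with size factors from DESeq2, without a count filter, with a mean of 50 counts, only the 6 tumors, length offsets, robust empirical Bayes, covariates for muscle or Y-linked RNA, splines of GC content and length, and a threshold of 0.05, and limma-voom also called 0. DESeq2's Wald test called 1 gene on 12 tumors and 26 on 6 tumors. Of the named genes it called 1 on 12 tumors and 9 on 6, and of the members of lists 9 on 6. Leaving out 1 tumor at a time, edgeR called between 0 and 16 genes, with 16 without m9, 1 (Slpi) without m6 and 0 otherwise, and between 0 and 3 list members. Without m5 and m9 together it called 3 genes, Ankrd2, Mustn1 and Myod1, of which 1 was a list member. DESeq2 on 6 tumors called 14, 13, 289, 30, 76 and 398 genes without m4, m5, m6, m7, m8 and m9. In these fits fewer samples were used, and the cause of the larger counts was not tested. The genes named that DESeq2 called on 6 tumors were Slpi, Angptl7, Ier2, Pi16, Cxcl2, Rpl14-ps1, Chd2, Scd2 and Bsn.

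None of the named genes that changed direction had been called. With splines of GC content and length, the log2 fold change was -0.015 for Foxm1, -0.097 for Chac1, -0.050 for Tubb5, -0.093 for Slc46a1, -0.0081 for Cdt1, -0.0051 for Bax, -0.016 for Gpx1, -0.051 for Rplp1, -0.031 for Rpl11, -0.012 for Cavin1 and 0.051 for Uty. With muscle RNA as a covariate it was -0.041 for Pecam1. Without m5 and m9 it was -0.086 for Pecam1, -0.047 for Tubb5, 0.058 for Abcb1b, -0.17 for Slc46a1, 0.043 for Sprr1a, -0.023 for Lmod1, 0.90 for Kdm5d and 0.73 for Uty. Leaving out 1 tumor at a time gave ranges of -0.036 to 0.099 for Foxm1, -0.22 to 0.37 for Chac1, -0.12 to 0.12 for Pecam1, -0.039 to 0.14 for Tubb5, -0.079 to 0.20 for Slc46a1, -0.0045 to 0.32 for Cdt1, -0.55 to 0.023 for Dhcr7, -0.77 to 2.66 for Cd79a, -0.84 to 0.35 for Kdm5d and -0.54 to 0.43 for Uty. The cause of these changes was not tested.

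No paired analysis was possible because the replicate numbers are those of the mice, 1 to 12, and no number occurs in both groups. A median half-width of 0.35 for the 95% intervals limits what 3 tumors per group could show.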
